A study of Homo sapiens with 3 samples.

Results

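The translation elongation factor genes EEF1A1, EEF2, EEF1G, EEF1B2 and EEF1D were chosen by gene name from 3 deposited lists of A-to-G positions in RNA. They held 235 of the 16820 positions listed in all, and 5 of 4245 gene names: 108 positions in EEF1A1, 64 in EEF2, 43 in EEF1G, 13 in EEF1B2 and 7 in EEF1D. HyperTRIBE, the method used, tethers a hyperactive catalytic domain of the adenosine deaminase ADAR to a protein that binds RNA, here the DEAD-box helicase DDX41, and the edited adenosines are read as G. The cells were THP-1, which are human monocytic leukemia cells. THP-1 cells received the pGK-GFP retrovirus with the fusion (DDX41-ADARcd), with the catalytic domain without a partner (ADARcd alone), or empty, and total RNA was taken at day 7 from 1 library in each of the 3 groups. A single cell line was used, and the labels say nothing of the cells' own ADAR enzymes. With 1 library per group, every test below compares the reads of libraries and not conditions.

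Elongation is the step of protein synthesis in which the ribosome adds amino acids. EEF1A1 encodes the GTPase eEF1A, which brings aminoacyl-tRNA to the ribosome, and EEF1B2, EEF1D and EEF1G encode the beta, delta and gamma subunits of the eEF1B complex that recharges eEF1A with GTP. EEF2 encodes the GTPase that moves the ribosome along the mRNA. EEF1A1 and EEF2 are known as housekeeping mRNAs of high abundance in growing cells.

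The positions that carried most edited reads are shown with 10 bases on each side, on the transcript strand from 5′ to 3′, with the listed A in capitals. The sequences come from the GENCODE 29 transcripts on GRCh38, and the name gives the gene and the position on its chromosome. Positions in EEF1A1 lie on chromosome 6, those in EEF1G on chromosome 11 and those in EEF2 on chromosome 19, each gene being on the minus strand. The last EEF1A1 entry is shown because most of its few reads without the reference A in DDX41-ADARcd carried C and not G.
EEF1A1 73518527: agtcaacgttAcaacggaagt
EEF1A1 73518602: tggtattggtActgttcctgt
EEF1A1 73518762: actgcatcctAccaccaactc
EEF1A1 73518392: tgacagcaaaAatgacccacc
EEF2 3976606: cgcaagcgcaAgggcctgaaa
EEF2 3984179: cttcactgatAcccggaagga
EEF1G 62571098: gccactgagaAtgcaaaggag
EEF1G 62571628: caggtggtgcAgtgggtgagc
EEF1G 62559659: gccatcacctAgctgcctgca
EEF1A1 73519168: tggtatctccAagaatgggca

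The lists give reads of each base per position in a pair of libraries, and each listed position had 1 or more edited reads in the library named first and 0 in its control. These genes had 71 of the 10407 positions listed for DDX41-ADARcd against ADARcd alone, 89 of the 3516 for DDX41-ADARcd against the empty vector, and 164 of the 6413 for ADARcd alone against the empty vector. Depth is known only at listed positions. The median over all listed positions was 220 reads in DDX41-ADARcd and 30 in the empty vector in their list, and 286 reads in ADARcd alone and 27 in the empty vector in theirs. Editing levels are percents of reads with the edited base, given with exact Clopper-Pearson 95% intervals, and a count of 0 is given with the level that 3 reads of the depth would make. Intervals and these limits cover counting error only, since PCR reads without molecular identifiers are not independent molecules. Of 16 monocytic marker genes, 10 had a listed position (SPI1, CEBPA, CSF1R, LYZ, ITGAX, FCER1G, TYROBP, CTSS, CD68 and FCGR1A), as did 0 of 13 markers of T, B, erythroid and epithelial cells. CD14, MPO, CD33, ITGAM, S100A8 and S100A9 had none, which in such lists does not show that they were not expressed.

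On GRCh38, EEF1A1 lies at chr6:73517515-73521588 on the minus strand, with 8 exons in transcript ENST00000309268.10. EEF2 lies at chr19:3976056-3985469 on the minus strand with 15 exons (ENST00000309311.6), and EEF1G at chr11:62559601-62573973 on the minus strand with 10 exons (ENST00000329251.4). EEF1B2 lies at chr2:206159585-206162928 on the plus strand with 7 exons (ENST00000236957.9), and EEF1D at chr8:143579728-143597415 on the minus strand with 10 exons (ENST00000442189.6). All 235 listed positions fall on an exon of these transcripts, and exon and coding base numbers refer to them.

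EEF1A1 was among the genes with most listed positions in every list. It had 35 in DDX41-ADARcd against ADARcd alone (rank 9 of 4036 genes), 45 in DDX41-ADARcd against the empty vector (rank 3 of 957) and 73 in ADARcd alone against the empty vector (rank 3 of 1258). EEF2 had 13, 15 and 51 positions in the same order of lists, and EEF1G had 16, 22 and 27. The other eEF1B subunits had few: EEF1B2 had 5, 5 and 8, and EEF1D had 2, 2 and 5. EEF1A1 was also the most deeply read of the 5 genes and EEF1D the least. The median depth in DDX41-ADARcd at positions listed against the empty vector was 2036 reads in EEF1A1, 538 in EEF2, 524.5 in EEF1G, 398 in EEF1B2 and 166.5 in EEF1D. In ADARcd alone the corresponding medians were 2808 reads in EEF1A1, 664 in EEF2, 704 in EEF1G, 494.5 in EEF1B2 and 228 in EEF1D. At such depth a single read with G lists a position, and the part of depth in these numbers of positions was not tested.

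Most listings rested on a single edited read. In DDX41-ADARcd against the empty vector these were 73 of the 89 positions (82.0%, against 81.5% of all listed positions), and in ADARcd alone against the empty vector 99 of 164 (60.4%, against 74.8%). In DDX41-ADARcd against ADARcd alone they were 63 of 71 (88.7%, against 83.9%). Positions with 5 or more edited reads, called well supported here, numbered 2 in DDX41-ADARcd, both in EEF1A1, and 16 in ADARcd alone, of which 6 lay in EEF1A1, 6 in EEF2 and 4 in EEF1G. EEF1B2 and EEF1D had none in either library.

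**Figure D1:**
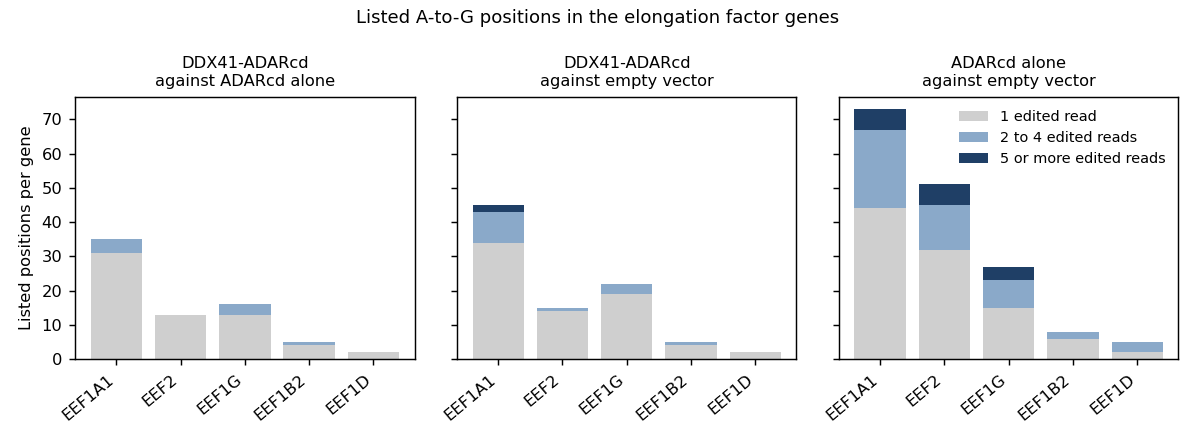
Number of listed A-to-G positions per elongation factor gene (y axis) in each of the 3 lists (panels), split by the number of edited reads behind the position. The dark part, 5 or more edited reads, is 2 positions for DDX41-ADARcd against the empty vector and 16 for ADARcd alone against the empty vector.

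Summed over its listed positions, EEF1A1 had 73 edited reads of 81534 in DDX41-ADARcd (0.0895%, 0.0702 to 0.113%) and 1079 of 193192 in ADARcd alone (0.559%, 0.526 to 0.593%), each listed against the empty vector. A few positions made this sum in ADARcd alone, where its 6 well-supported positions held 90.8% of the edited reads of the gene. In DDX41-ADARcd its 2 well-supported positions held 24.7%. The remaining positions had levels near 1 read of their depth: summed, 0.0707% over 43 positions in DDX41-ADARcd and 0.0567% over 67 positions in ADARcd alone. The median level of a listed EEF1A1 position was 0.0609% in DDX41-ADARcd and 0.0575% in ADARcd alone. Because the lists hold different positions, these sums describe each list and were not tested against each other.

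In EEF2 and EEF1G too, the sums rested on few positions. EEF2 summed to 16 edited reads of 7986 in DDX41-ADARcd (0.200%) and 131 of 32936 in ADARcd alone (0.398%), with a highest level of 0.380% in DDX41-ADARcd and 3.71% in ADARcd alone. EEF1G summed to 25 of 11303 (0.221%) in DDX41-ADARcd and 102 of 19181 (0.532%) in ADARcd alone, with a highest level of 1.20% in DDX41-ADARcd and 2.99% in ADARcd alone. Of the EEF2 edited reads in ADARcd alone 51.9% lay at its 6 well-supported positions, and of those of EEF1G 66.7% at its 4. Without them the sums in ADARcd alone were 0.217% in EEF2 and 0.212% in EEF1G, close to those of DDX41-ADARcd. Listing requires an edited read, so these sums and the median levels mostly follow the listing rule and depth. Their closeness is thus no measure of equal editing. Median levels were 0.186% in DDX41-ADARcd and 0.179% in ADARcd alone for EEF2, and 0.197% in DDX41-ADARcd and 0.192% in ADARcd alone for EEF1G. EEF1B2 had 6 edited reads of 1950 (0.308%) in DDX41-ADARcd and 10 of 4103 (0.244%) in ADARcd alone. EEF1D had 2 of 333 (0.601%) in DDX41-ADARcd and 8 of 1280 (0.625%) in ADARcd alone. For these 2 subunits no listed position had more than 2 edited reads.

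In EEF1A1, 4 neighbouring coding positions stood apart in ADARcd alone. Position 73518527, in exon 6 at base 856 of the coding sequence, had 7 edited reads of 1736 in DDX41-ADARcd (0.403%, 0.162 to 0.829%), 407 of 2287 in ADARcd alone (17.8%, 16.2 to 19.4%) and 0 of 347 in the empty vector, which allows up to 0.865%. Position 73518602, at coding base 781 of the same exon, had 11 of 2043 in DDX41-ADARcd (0.538%, 0.269 to 0.961%), 243 of 2814 in ADARcd alone (8.64%, 7.62 to 9.73%) and 0 of 409 in the empty vector. It was the EEF1A1 position with the highest level and most edited reads in DDX41-ADARcd. Position 73518762, at coding base 708 in exon 5, had 4 of 1919 in DDX41-ADARcd (0.208%, 0.0568 to 0.533%), 200 of 3065 in ADARcd alone (6.53%, 5.68 to 7.46%) and 0 of 346 in the empty vector. Position 73518392, at coding base 991 in exon 6, had 1 of 2929 in DDX41-ADARcd (0.0341%, 0.000864 to 0.190%), 114 of 4096 in ADARcd alone (2.78%, 2.30 to 3.33%) and 0 of 806 in the empty vector. At each of the 4 the interval of ADARcd alone lay wholly above that of DDX41-ADARcd.

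These 4 positions lay within 284 bases of the mRNA, while the 73 EEF1A1 positions listed for ADARcd alone ran from base 630 to base 2210. Of the 4 A-to-G changes, those at coding bases 781, 856 and 991 hit the first base of a codon and change the amino acid, and that at 708 hits a last base and leaves it. The other 2 well-supported EEF1A1 positions were much lower in ADARcd alone: 73519167 had 7 edited reads of 2213 (0.316%, 0.127 to 0.651%) and 73518391, the base next to 73518392, had 9 of 4135 (0.218%, 0.0996 to 0.413%). Neither was listed for DDX41-ADARcd.

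**Figure D2:**
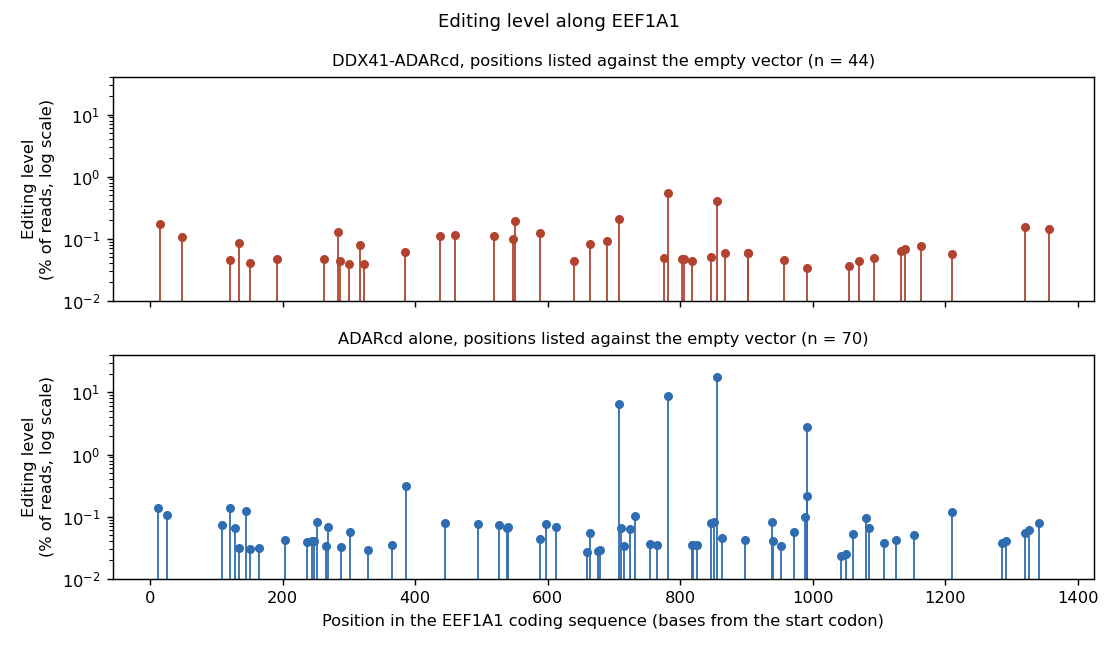
Editing level (y axis, % of reads, log scale) along the coding sequence of EEF1A1 (x axis, bases from the start codon), 1 stem per coding position listed against the empty vector, for DDX41-ADARcd (top, 44 positions) and ADARcd alone (bottom, 70 positions). The 4 tall stems in ADARcd alone, at 2.78 to 17.8%, stand at coding bases 708, 781, 856 and 991, where DDX41-ADARcd is at 0.0341 to 0.538%.

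DDX41-ADARcd was lower than ADARcd alone at 6 positions of these genes in a two-sided Fisher's exact test per position with Benjamini-Hochberg adjustment over all 9227 positions tested, and higher at none. The called positions were the 4 above in EEF1A1, EEF2 3976606 and EEF1G 62571098, out of 91 tested in the 5 genes. Over the whole comparison 26 positions were lower in DDX41-ADARcd (0.282%) and 0 were higher (0%). At an unadjusted p under 0.05, 8 positions of these genes were lower and 0 higher, against 39 lower and 40 higher among all positions. At the median depths of each of the 5 genes, a higher level beside 0 edited reads in ADARcd alone needed 4 edited reads for such a p. No position of these genes unlisted for ADARcd alone had more than 3, so the 0 higher is no measure of these genes. Since the list of this pair admits no edited read in ADARcd alone, a lower level in DDX41-ADARcd can be seen only where both libraries were listed against the empty vector. Of 400 such positions tested 26 were called (6.5%), and of 20 in these genes 6 were. The test depends on depth, which at positions of DDX41-ADARcd against the empty vector had a median of 2036 reads in EEF1A1 and 220 over all genes, and the part of depth in this count was not tested.

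The difference in level, DDX41-ADARcd minus ADARcd alone, was -17.4 percentage points at EEF1A1 73518527 (adjusted p = 5.62e-92 by the Fisher's exact test). In the same exact test it was -8.10 points at 73518602 (adjusted p = 4.55e-42), -6.32 at 73518762 (adjusted p = 1.60e-34) and -2.75 at 73518392 (adjusted p = 1.13e-22). As ratios of ADARcd alone over DDX41-ADARcd the levels were 44.1, 16.0, 31.3 and 81.5 in that order of positions. These ratios rest on 7, 11, 4 and 1 edited reads in DDX41-ADARcd and were not tested against each other.

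EEF2 had 1 called position. At 3976606, coding base 2525 in exon 15, edited reads were 2 of 527 in DDX41-ADARcd (0.380%, 0.0460 to 1.36%), 26 of 700 in ADARcd alone (3.71%, 2.44 to 5.40%) and 0 of 73 in the empty vector, which allows up to 4.11%. The difference of -3.33 points had an adjusted p of 0.0187 by the Fisher's exact test, and was no longer called after Bonferroni adjustment (0.468) or with every count of reads halved (1). The other high EEF2 position, 3984179 at coding base 175 in exon 2, had 21 edited reads of 709 in ADARcd alone (2.96%, 1.84 to 4.49%) and 0 of 72 in the empty vector, and was not listed for DDX41-ADARcd. The 4 further well-supported EEF2 positions had 5 or 6 edited reads in ADARcd alone and levels of 0.710 to 1.22%. Position 3977337 among them was listed for both libraries, with 1 of 439 in DDX41-ADARcd (0.228%) and 5 of 539 in ADARcd alone (0.928%), a difference that did not pass the test.

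EEF1G, whose product anchors the eEF1B subunits, had 3 positions with levels above 2% in ADARcd alone. Position 62571098, coding base 389 in exon 5, had 1 edited read of 762 in DDX41-ADARcd (0.131%, 0.00332 to 0.729%), 30 of 1005 in ADARcd alone (2.99%, 2.02 to 4.23%) and 0 of 210 in the empty vector. Its difference of -2.85 points had an adjusted p of 0.000429 by the Fisher's exact test, which became 0.0864 with reads halved. Position 62571628, coding base 290 in exon 4, had 1 of 525 in DDX41-ADARcd (0.190%), 20 of 704 in ADARcd alone (2.84%) and 0 of 148 in the empty vector, with an adjusted p of 0.0615. Its adjusted p was 0.000607 to 0.0456 when the test was limited to positions with 20 or more reads, with 2 or 5 or more edited reads, or listed for both libraries. The cuts on edited reads were met only through ADARcd alone, where this position was high, so passing under them is no support. For 62571628 other settings gave no pass. The adjusted p was 0.0604 without mitochondrial positions, and 1 with Bonferroni adjustment or reads halved. Position 62559659, in the 3′ UTR in exon 10, had 1 of 468 in DDX41-ADARcd (0.214%), 13 of 558 in ADARcd alone (2.33%) and 0 of 105 in the empty vector, with an adjusted p of 0.560. It passed only when positions with 5 or more edited reads were tested alone (0.0123), a cut that it too met only through ADARcd alone.

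**Figure D3:**
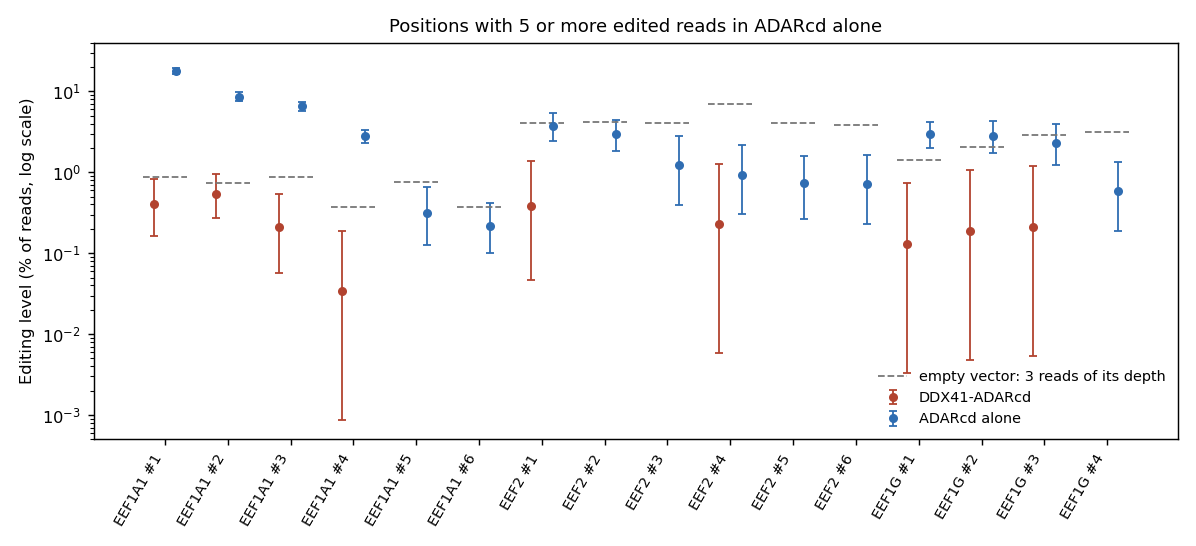
Editing level (y axis, % of reads, log scale) at the 16 positions of EEF1A1, EEF2 and EEF1G that ADARcd alone edited in 5 or more reads, numbered within a gene from the highest level, with exact 95% intervals; a dashed line is the level that 3 reads of the empty vector's depth would make. DDX41-ADARcd (red, left of each pair) was listed at 9 of the 16, against 78 of 260 such positions over all genes. It lies below ADARcd alone (blue) there, in positions chosen for their edited reads in ADARcd alone. EEF1A1 #1 to #4 are the 4 called coding positions.

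Against the empty vector, 4 positions of these genes were called in ADARcd alone and none in DDX41-ADARcd. Both lists admit only positions with an edited read in the transduced library and 0 in the empty vector, so the direction was fixed by the listing and the p-values do not account for that choice. All 4 were the EEF1A1 coding positions above, with adjusted p of 2.22e-24 at 73518527, 3.18e-12 at 73518602, 6.20e-07 at 73518762 and 1.48e-06 at 73518392 (Fisher's exact test over 6412 positions, of which 13, or 0.203%, were called). A further 2 positions had an unadjusted p under 0.05, EEF1G 62571098 (0.00558) and 62571628 (0.0343). In DDX41-ADARcd against the empty vector 0 of 3512 positions were called (0%) and 3 had an unadjusted p under 0.05. None of the 89 in these genes did, and their smallest unadjusted p was 0.229. The depth of the empty vector sets what could be called. At the median depths of DDX41-ADARcd and the empty vector, an unadjusted p under 0.05 needed a level of 1.03% in EEF1A1, 5.39% in EEF2, 4.01% in EEF1G, 3.77% in EEF1B2 and 12.0% in EEF1D. Every listed level in DDX41-ADARcd lay below that level for its gene, so a difference from the empty vector was not detectable at this depth.

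Both levels are known at the positions listed for each of the 2 libraries against the empty vector, which the 2 lists share as their control. There were 11 such positions in EEF1A1, 3 in EEF2, 6 in EEF1G and none in EEF1B2 or EEF1D. Summed, EEF1A1 had 34 edited reads of 22463 in DDX41-ADARcd and 975 of 31695 in ADARcd alone. EEF2 had 4 of 1423 in DDX41-ADARcd and 33 of 1798 in ADARcd alone, and EEF1G had 6 of 3318 in DDX41-ADARcd and 69 of 4429 in ADARcd alone. In ADARcd alone these sums are carried by the well-supported positions. At 7 of the 20 positions DDX41-ADARcd had the higher level, with 1 or 2 edited reads in each library, where the level mostly follows the depth, and the smallest unadjusted p by the Fisher's exact test was 0.571. At the other 13 its level was lower. The balance was the other way over all genes, where DDX41-ADARcd was higher at 243 of 402 such positions and lower at 159.

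Positions edited in DDX41-ADARcd and not listed for ADARcd alone had few edited reads. Of 16 positions with 2 or more edited reads in DDX41-ADARcd, 8 were not listed for ADARcd alone, and none of the 8 had more than 3. At any number of edited reads, 20 of the 89 positions of DDX41-ADARcd (22.5%) were also listed for ADARcd alone. Over all genes 402 of 3516 were (11.4%). The highest count was at EEF1A1 73519377, coding base 284, with 3 of 2324 in DDX41-ADARcd (0.129%, 0.0266 to 0.377%), 0 of 3104 in ADARcd alone and 0 of 539 in the empty vector. In EEF1G, 62560410 had 2 of 167 in DDX41-ADARcd (1.20%, 0.145 to 4.26%), 0 of 285 in ADARcd alone and 0 of 23 in the empty vector. EEF1B2 was highest at 206162041 on chromosome 2, with 2 of 398 in DDX41-ADARcd (0.503%, 0.0609 to 1.80%), 0 of 633 in ADARcd alone and 0 of 95 in the empty vector. In ADARcd alone the highest EEF1B2 level was at 206160001, with 2 of 433 (0.462%). EEF1D reached 1 of 137 (0.730%) at 143586795 on chromosome 8 in DDX41-ADARcd, where ADARcd alone had 0 of 170, and 2 of 213 (0.939%) at 143580510 in ADARcd alone. None of these passed the test. EEF1A1 73517773 in the 3′ UTR had the highest level among EEF1A1 positions listed for DDX41-ADARcd against ADARcd alone, with 1 of 210 (0.476%) in DDX41-ADARcd and 0 of 366 in ADARcd alone. In that list the highest EEF2 level was 0.269%, 1 of 372 at 3982871, with 0 of 480 in ADARcd alone.

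The ratio of reads between the libraries lay within the range of other genes. At positions listed for DDX41-ADARcd against ADARcd alone, the median ratio of reads, DDX41-ADARcd over ADARcd alone, was 0.717 in EEF1A1, 0.808 in EEF2, 0.728 in EEF1G and 0.624 in EEF1B2. The median over 527 genes with 5 or more such positions was 0.659, with a 5th to 95th percentile range of 0.488 to 0.876, and all 4 genes lay inside it. In bulk libraries such a ratio mixes library size and RNA per cell, which cannot be told apart here.

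Listed positions lay almost wholly in coding exons. DDX41-ADARcd against the empty vector had 87 of its 89 positions in coding sequence and 2 in 3′ UTRs, and ADARcd alone had 155 of its 164 in coding sequence and 9 in 3′ UTRs. Over all genes, coding positions were 2561 of 3370 on a transcript for DDX41-ADARcd and 4633 of 6212 for ADARcd alone. Of the A with 2 neighbours in the 5 mRNAs, 1848 of 2320 are coding to begin with. An amino acid would change at 68 of 87 coding positions in DDX41-ADARcd and at 126 of 155 in ADARcd alone, where changing any coding A of the 5 mRNAs to G would do so at 1546 of 1848 (83.7%). Per 100 coding A, EEF1A1 had 11.8 listed positions in DDX41-ADARcd and 18.7 in ADARcd alone. EEF1G followed with 6.80 in DDX41-ADARcd and 8.41 in ADARcd alone, and EEF2 with 2.69 in DDX41-ADARcd and 8.26 in ADARcd alone. EEF1B2 had 2.42 in DDX41-ADARcd and 3.86 in ADARcd alone. EEF1D came last with 0.499 in DDX41-ADARcd, against 1.25 in ADARcd alone for that gene. The EEF1D transcript used is coding from base 200 to base 2140, and all 7 listed positions lie at coding bases 1149 to 1736. Its density thus depends on the transcript chosen.

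ADAR enzymes are known to prefer A or U before the edited A and to avoid G there. Among the 16 well-supported positions of ADARcd alone, T (U in the RNA) stood before the A at 6 (37.5%). A stood there at 7 and G at 0, and G stood after the A at 9 (56.25%). Over all genes, 256 such positions on a transcript had T before at 44.9%, G before at 4.30% and G after at 55.1%. Of the 4 called EEF1A1 windows shown above, those at 73518527, 73518602 and 73518762 have T before and C after the A, and that at 73518392 has A on both sides. Among all 164 listed positions of ADARcd alone in these genes T came before at 12.2% and G at 28.0%. Among the 89 of DDX41-ADARcd T came before at 11.2% and G at 33.7%. Over every coding A of the 5 mRNAs these shares were 8.44% and 33.9%, and G came after at 34.0%. The predicted chance of being unpaired, from local folding of the mRNA, had a median of 0.690 at the 16 well-supported positions and 0.716 over every coding A. At the called EEF1A1 positions it was 0.927 at 73518527, 0.664 at 73518602, 0.683 at 73518762 and 0.984 at 73518392. These are descriptions over positions that share transcripts, with no test.

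Reads of bases other than A and G were counted at the listed A positions of EEF1A1, whatever their source. In DDX41-ADARcd they occurred at 25 of the 46 EEF1A1 positions with reads in a list, 72 of 82992 reads in all (0.0868%, 0.0679 to 0.109%), 53 to C and 19 to T on the transcript. Without position 73519168 these were 49 of 81351 reads (0.0602%, 0.0446 to 0.0796%). In ADARcd alone they occurred at 68 of 108 positions, 155 of 277766 reads (0.0558%, 0.0474 to 0.0653%), 98 to C and 57 to T. In the empty vector they occurred at 17 of 107 positions, 21 of 43791 reads (0.0480%, 0.0297 to 0.0733%), 15 to C and 6 to T. Each library thus had such reads, and A-to-C outnumbered A-to-T in all 3. Over all genes the share of other bases was 0.122% in DDX41-ADARcd and 0.0984% in ADARcd alone at positions listed against the empty vector.

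At EEF1A1 positions with fewer than 5 edited reads, reads of the other 2 bases together were similar in number to edited reads, which are of 1 base. In DDX41-ADARcd there were 55 edited reads and 67 of other bases over 43 positions, and in ADARcd alone 99 edited and 94 of other bases over 67 positions. Per base, edited reads were 1.64 times the mean of the other 2 in DDX41-ADARcd and 2.11 times in ADARcd alone. Position 73519168 alone gave 23 of the 67, and without it DDX41-ADARcd had 54 edited reads and 44 of other bases over 42 positions, a count made after seeing the data. The order of the ratios in the libraries thus rests on that position. Listing requires an edited read and not another base, which favours edited reads in this count. In EEF2 and EEF1G edited reads outnumbered those of other bases at such positions. EEF2 had 16 edited reads and 5 of other bases in DDX41-ADARcd, and 63 and 18 in ADARcd alone, while EEF1G had 25 and 11 in DDX41-ADARcd, and 34 and 13 in ADARcd alone. At the 4 called positions in ADARcd alone, 114 to 407 edited reads stood beside 0 to 3 of other bases, as the plot of edited reads against other bases shows.

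The most other-base reads at an EEF1A1 position were in DDX41-ADARcd. At 73519168, coding base 385, DDX41-ADARcd had 23 reads of other bases among 1641 (1.40%, 0.891 to 2.10%), all A-to-C, beside 1 edited read. ADARcd alone had 0 of 2310 there and the empty vector 0 of 418, which allows up to 0.718%. At 73518794 ADARcd alone had 13 of 3511 (0.370%, 0.197 to 0.632%), 12 of them to C, beside 1 edited read, and the empty vector 1 of 447. At 73518214 ADARcd alone had 12 of 3188 (0.376%, 0.195 to 0.657%), 10 to C, beside 3 edited reads, and the empty vector 1 of 415. At 73519338 there was 1 of 2532 in DDX41-ADARcd, 8 of 3456 in ADARcd alone (0.231%) and 0 of 600 in the empty vector. At 73518608, 6 bases from a called position, there were 2 of 2036 in DDX41-ADARcd, 7 of 2801 in ADARcd alone (0.250%) and 0 of 403 in the empty vector. The position listed highest in DDX41-ADARcd, 73518602, had 5 reads of other bases in that library, 0 in ADARcd alone and 1 in the empty vector. Over all genes, shares of other bases over 1% occurred at 154 of all 3516 positions listed for DDX41-ADARcd against the empty vector (4.38%), 1 of which, 73519168, lay in an elongation factor gene.

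**Figure D4:**
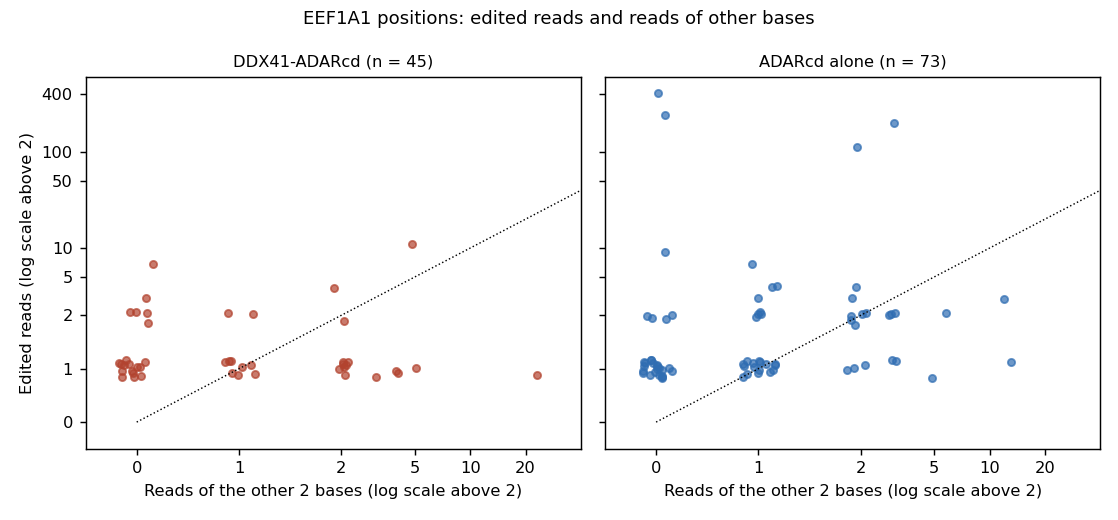
Edited reads (y axis) against reads of the other 2 bases (x axis) at each EEF1A1 position listed against the empty vector, for DDX41-ADARcd (left, 45 positions) and ADARcd alone (right, 73 positions), on axes that are linear to 2 and logarithmic above, with points shifted slightly so that they do not hide each other. The dotted line marks equal counts: the 4 called positions lie far above it in ADARcd alone, and 73519168, with 23 reads of other bases and 1 edited, lies far below it in DDX41-ADARcd.

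EEF1A1 has many near-identical copies in the genome. GENCODE 29 lists 40 with sequence that aligned to it, 39 pseudogenes and EEF1A2, and the closest, EEF1A1P5, is 99.7% identical over 1389 bases. At 68 of the 108 listed EEF1A1 positions at least 1 copy has G where EEF1A1 has A, so a read of a copy placed on EEF1A1 would be counted as edited. A median of 36 copies aligned at the listed positions, and the share over every A of EEF1A1 is not given here. At the called positions G stood in 2 of 37 aligned copies at 73518527, 1 of 37 at 73518602, 1 of 36 at 73518762 and 1 of 37 at 73518392. The 0 edited reads of the empty vector are a condition of listing and do not bear on this. The sources used here do not give how reads shared between copies were placed, and EEF1A1 levels are uncertain to that extent. Some copies carry C at the 5 positions with most other-base reads, except at 73519338. This was 1 of 34 aligned copies at 73519168, 1 of 36 at 73518794, 2 of 37 at 73518214, 2 of 37 at 73518608 and 0 of 34 at 73519338. Whether reads of copies gave the other-base reads there was not tested. For EEF2, 0 copies were found by gene name in GENCODE 29. Copies were not searched for by sequence in the genome, so this does not exclude them. EEF1G has 8 copies, the closest 94.4% identical over 1310 bases, with G at 9 of its 43 listed positions. EEF1B2 has 8, with G at 3 of 13, and EEF1D has 8, with G at 2 of 7.

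Of 74 other genes of translation initiation, elongation and release, 24 had 86 listed positions in DDX41-ADARcd against the empty vector, 32 had 163 in ADARcd alone against the empty vector and 42 had 161 in DDX41-ADARcd against ADARcd alone. The Fisher's exact test called 0 positions in each, and 0 had an unadjusted p under 0.05, the smallest over the 3 comparisons being 0.0788. With 86, 163 and 150 positions tested in that order, and 0%, 0.203% and 0.282% called over all genes, 0 calls is near the background. PABPC1, a poly(A)-binding protein, had most positions in both lists against the empty vector, with 20 in DDX41-ADARcd and 34 in ADARcd alone, and its highest count was 10 edited reads of 446 in ADARcd alone (2.24%, 1.08 to 4.08%). EIF4G2, a scaffold of initiation, had 11 positions in each. EIF3D, an eIF3 subunit, reached 7 of 116 (6.03%) in ADARcd alone.

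By number of listed positions over the 3 lists, the genes nearest to EEF1A1 were TALAM1, YBX1 and MALAT1, at Euclidean distances of 0.138, 0.154 and 0.184 on the log10(positions + 1) scale. TALAM1 is annotated antisense to the non-coding RNA MALAT1, and the sources used here do not say whether reads were counted by strand. YBX1 encodes an RNA-binding protein. Nearest to EEF2 were PTMA, RPL4 and CANX, at 0.0917, 0.165 and 0.187. This likeness is of counts in 3 lists only.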

How the data were processed

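The 3 lists of A-to-G positions came from 3 libraries of THP-1 cells. They hold counts, deposited by the authors without normalization: per the file headers, reads of A, T, C and G and their total at a position in 2 libraries. The submitters' processing notes name CASAVA 1.4, FastQC 0.11.7, STAR 2.5 and mm10, without saying what each did. How positions were called, filtered and annotated is not given in the sources used here. No column names its library: those marked gDNA/wtRNA were read as the control, and the others as the library that comes first in the name of the list. In the lists' own totals, the empty vector was equal between lists at 402 of 402 shared positions and DDX41-ADARcd at 3114 of 3114. Every entry had at least 1 edited read, a control with 0 edited reads, at least 10 reads and at least 80% reference base. Entries repeating a position (184, 62 and 134 in the lists of DDX41-ADARcd against ADARcd alone, DDX41-ADARcd against the empty vector and ADARcd alone against the empty vector) were joined.

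Coordinates were checked against human GENCODE 29 on GRCh38: 99.9% of 15766 positions on a transcript have A there. A two-sided Fisher's exact test (SciPy 1.17.1) compared edited and other reads at positions with at least 10 reads in both libraries, with Benjamini-Hochberg adjustment over a comparison and a threshold of 0.05. For DDX41-ADARcd against ADARcd alone the positions where both libraries were listed against the empty vector were added to the deposited list. Reads of DDX41-ADARcd at positions listed only for ADARcd alone are not used here. Copies of a gene were aligned with BLAST+ 2.17.0 (word size 11), and pairing was predicted with RNAplfold of ViennaRNA 2.7.2 (window 150, span 100). The test was tried on simulated data.

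Named were, per gene and list, the position with most edited reads and that with the highest level at 20 or more reads in both libraries, every called position, the 5 EEF1A1 positions with most other-base reads, the 3 nearest genes to EEF1A1 and to EEF2 and up to 5 other translation factors per list. Genes with well-supported positions were described beyond this rule. The members and gene lists were chosen with earlier results of these data known. Alternatives were other minimums of reads and edited reads, Bonferroni adjustment, halved reads, mitochondrial positions left out and shared positions alone. Leaving out EEF1A1 73519168 was added after seeing the data.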

Additional observations from a re-analysis of the deposited data

Results flagged for a closer look

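One EEF1A1 position stood out in data outside the A-to-G measurement. At 73519168 on chromosome 6, DDX41-ADARcd had reads of a base other than A or G at 1.40% (23 of 1641, 0.891 to 2.10%), above the 0.718% that 0 of 418 reads in the empty vector allow. All 23 were A-to-C on the transcript, and ADARcd alone had 0 of 2310. Of 34 aligned copies of EEF1A1, 1 has C there, and the cause was not tested.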

How the results depend on the processing

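No paired analysis was possible because each group has 1 library. With positions of at least 5 edited reads alone tested, 42 were called for DDX41-ADARcd against ADARcd alone, where the reported test called 26, and 1 was called for DDX41-ADARcd against the empty vector, where it called 0. Fewer positions were then adjusted together. They were kept by the edited reads of the library with more of them, so calls gained under such a cut add no support. With reads halved in every library, 7 positions were called for ADARcd alone against the empty vector, where the reported test called 13. No other count of calls over all genes moved by more than 1.5 times. In the elongation factor genes the 6 calls of DDX41-ADARcd against ADARcd alone became 4 with reads halved, 5 after Bonferroni adjustment and 8 among positions with 5 or more edited reads, and the 4 EEF1A1 calls against the empty vector were 4 under each alternative run. None of these alternatives could turn a direction, since they drop positions, change the adjustment or scale both libraries alike. Of 92 alternative tests of single positions 84 stayed on the same side of the threshold, 5 newly passed and 3 no longer passed, all in EEF1G and EEF2. The number of positions per gene depends most on the edited reads required: with at least 2, EEF1A1 had 11 in DDX41-ADARcd and 29 in ADARcd alone, each against the empty vector. Leaving out EEF1A1 73519168, an alternative chosen after seeing the data, brought the share of other bases in DDX41-ADARcd against the empty vector to 0.0613%, against 0.0883% with it. The low depth of the empty vector, and the single library per group, limit every comparison.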
